A study of Mus musculus with 12 samples.

Results

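The comparison described here set 3 RNA libraries of EKO cells against 3 of CtrV cells, both stimulated with LPS and not given ovalbumin (OVA). These are 6 of the 12 libraries of a study on Siglec receptors of dendritic cells (DCs), and they were chosen by their labels, EKO_ut and CtrV_ut, replicates 1 to 3. The other 6 libraries come from the same lines pulsed with OVA protein. They were part of the same fit, and so of the gene filter, scaling and estimate of spread behind the SEs and p-values below. Their own line difference is given only where it is set beside that of unpulsed cells. Sp37A3 is a DC line from the spleen of C57BL/6 mice, grown in IMDM medium with murine GM-CSF and M-CSF.

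CtrV cells carry the empty lentiCRISPRv2 vector, and the label calls them SiglecE-expressing. EKO cells are the Siglec-E knockout made by CRISPR in the same line, a mixture of several selected single clones. All 6 cultures received LPS and were processed for 24 h, so no group here is unstimulated. Whether CtrV cells were cloned is not given in the sources used here, and the knockout and any other difference between the lines cannot be told apart in this design. The labels do not say how the replicates of a line were handled. The p-values therefore measure the spread between samples over all 12 libraries, which may be technical.

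Siglec-E is a receptor of myeloid cells that binds sialic acid on glycoproteins and glycolipids and carries inhibitory motifs in its cytoplasmic tail, which recruit the phosphatases SHP-1 and SHP-2. LPS is sensed by TLR4 with CD14 and MD-2, and signals through MyD88 to NF-kB and MAP kinases and through TRIF to IRF3 and interferon beta. Interferon beta acts back on the cell through its receptor and switches on the interferon-stimulated genes. DCs that mature after LPS raise co-stimulators and cytokines for T cells, and the mature migratory DC state is marked by CCR7, fascin and CCL22.

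Siglece, the targeted gene, lies at chr7:43651070-43660161 on the minus strand (mm10). Its level was 153, 150.2 and 162 CPM (counts scaled to library size, by TMM) in CtrV replicates 1, 2 and 3 and 166, 222 and 235 CPM in the EKO libraries. The lowest EKO library lay just above the highest CtrV library, and the fitted log2 difference was 0.41 ± 0.08 (SE, edgeR adjusted p = 0.0026, n = 3 against 3). Gene counts do not show small insertions or deletions at a guide site, and an edited gene can still be transcribed, so the mRNA level does not check the label. For that reason the libraries are called EKO-labelled below. Apart from these libraries, the paper reports that the single clones it pooled had little or no Siglec-E expression. Among the other Siglecs, Siglecg, a receptor best known in B cells, was 0.6698, 0.752 and 1.41 CPM in CtrV and 5.5005, 6.27 and 6.48 CPM in EKO-labelled cells, and it rose by 2.68 ± 0.20. Siglecf, the Siglec of eosinophils and alveolar macrophages, rose by 0.88 ± 0.12, whereas Cd33, which lacks the usual inhibitory tail in mice, fell by 0.95 ± 0.11. Ptpn6, the gene of SHP-1, was 809.6, 789.8 and 849.7 CPM in CtrV and 823, 1058 and 1059 CPM in EKO-labelled cells, so that replicate 1 lay within the CtrV range, and it rose by 0.26 ± 0.07. It was not called without CtrV replicate 2, EKO-labelled replicate 2 or EKO-labelled replicate 3 (edgeR adjusted p = 0.07, 0.074 and 0.068).

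The 6 libraries held 27116201 to 33313469 counts and their mitochondrial share was 1.21 to 1.33%. Of 14079 genes tested, 6537 (46.4%) differed between the lines at an adjusted p under 0.05 (edgeR quasi-likelihood test, Benjamini-Hochberg over all genes tested), and such genes are called below. 3448 genes (24.5%) were called higher in EKO-labelled cells and 3089 (21.9%) were called lower, and these shares are the background for the counts of list members. All 3 EKO-labelled libraries lay above all 3 CtrV libraries in 24.1% of the genes and below them in 22.9%. Many genes below were named for a large called difference, so a lack of overlap in them only describes their values. The median absolute log2 difference of the called genes was 0.432, and 1241 called genes differed by at least 1, of which 783 were higher and 458 lower. 5 of 8 Siglec and SHP phosphatase genes tested were called higher and 1 lower. Expression differences below are fitted log2 fold changes of EKO-labelled over CtrV cells with their SE, and levels are CPM in replicates 1, 2 and 3.

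**Figure D1:**
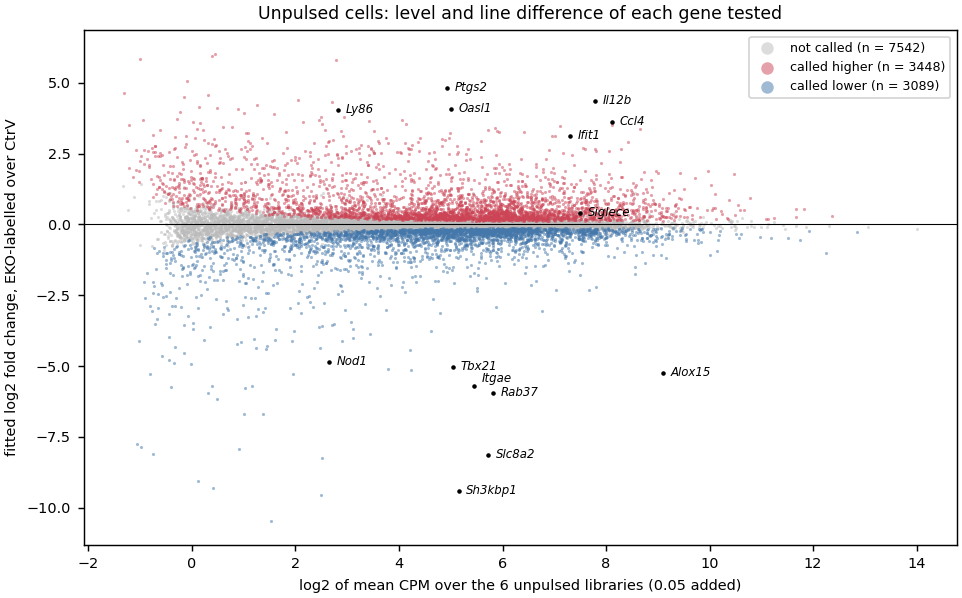
Each point is 1 of the 14079 genes tested, with the log2 of its mean CPM over the 6 unpulsed libraries on the x axis and the fitted log2 fold change of EKO-labelled over CtrV cells on the y axis. Colors mark the 3448 genes called higher and the 3089 called lower, the named falls Sh3kbp1 and Slc8a2 lie further from 0 than the named rises Ptgs2 and Il12b, and Siglece sits close to 0.

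Replicates did not spread evenly. In a principal component analysis of the 6 libraries, the first component (83.9% of the variance) separated the lines and the second (8.51%) set EKO-labelled replicate 1 apart, at 24.97 against -8.42 and -14.7 for replicates 2 and 3. EKO-labelled replicate 1 was at least 1 log2 unit above both other EKO-labelled libraries in 79 genes and as far below them in 40. CtrV replicate 3 was as far above both other CtrV libraries in 2 genes and below them in 16. For some lists, counts of members are also given without EKO-labelled replicate 1 or CtrV replicate 3, where that moved them by over 1.5 times.

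The interferon-stimulated genes had the highest share of members called in one direction among the lists with at least 8 members tested. Of 62 members tested, 58 were called higher and 1 lower in EKO-labelled cells, with a median log2 difference of 1.55 beside 0.00 over all genes tested. In 55 members all 3 EKO-labelled libraries lay above all 3 CtrV libraries, and in 1 they lay below, beside 24.1% and 22.9% of all genes tested. Many of these promoters carry an interferon-stimulated response element, a site bound by factors of the IRF family. Its core was searched as GAAANNGAA on both strands in the 250 bases before the start. Neither it nor the NF-kB consensus used further on can contain the other. In all, 20 of 59 RefSeq promoters of the members called higher (33.9%) held it, beside 7.13% of the 32851 mouse promoters given and 6.57% of those of genes tested. The share was 8 of 10 for the interferon-inducible GTPases called higher. Of the interferon-stimulated member called lower, 2 of 2 promoters also held the core. Other motifs were searched in the promoters of interferon-stimulated members called higher. The AP-1 site TGANTCA was in 18.6%, beside 4.4% of promoters of genes tested. The cell cycle homology region TTTGAA was in 25.4%, beside 11.1%. The gamma-activated site TTCNNNGAA was in 8.47%, beside 5.94%, and the E2F site TTTNGCGC in 0%, beside 2.04%. Of the GTPase promoters, 5 of 10 held the gamma-activated site, 5 of 10 the homology region and 2 of 10 the AP-1 site.

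Stretches of such promoters are shown from RefSeq (GRCm38.p6) for the members with the largest rises that hold the core, read 5′ to 3′ on the gene's strand, with matches on either strand in capitals. The Ifit1bl1 stretch lies at chr19:34602033-34602190, minus strand, and that of Ifit3 at chr19:34583344-34583465, plus strand. The stretch before Ifit3b has the same letters as that of Ifit3, and reads of these near-identical copies could have been assigned to either.
Ifit1bl1: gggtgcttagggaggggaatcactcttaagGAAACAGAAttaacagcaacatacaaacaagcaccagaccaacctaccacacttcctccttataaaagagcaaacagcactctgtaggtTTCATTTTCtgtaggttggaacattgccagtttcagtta
Ifit3: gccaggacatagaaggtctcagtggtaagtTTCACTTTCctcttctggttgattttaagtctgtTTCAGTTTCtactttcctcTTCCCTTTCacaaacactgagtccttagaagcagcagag
3 matches lie close together before Ifit3, whereas the 2 before Ifit1bl1 lie further apart. Ifit3, whose protein binds the IFIT1 complex on foreign RNA, rose by 3.12 ± 0.46 and Ifit1bl1, a relative of it, by 3.29 ± 0.35.

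Among these genes, Oasl1, an oligoadenylate synthetase-like protein that restrains IRF7 translation, was 2.82, 3.796 and 3.88 CPM in CtrV and 34.7, 81.2 and 65.1 CPM in EKO-labelled cells, a rise of 4.08 ± 0.32 (edgeR adjusted p = 3.6e-06). Zbp1, a sensor of Z-form nucleic acid that can start necroptosis, was 7.297, 8.81 and 14.2 CPM and 67.2, 135 and 116 CPM, a rise of 3.42 ± 0.49. Levels of Ifit1, which binds RNA with an uncapped or incompletely capped end, were 25.8, 33.8 and 36.9 CPM in CtrV and 146, 376 and 327 CPM in EKO-labelled cells, a rise of 3.11 ± 0.36. In each of these genes the lines did not overlap, and EKO-labelled replicate 1 was the lowest of its line. Isg15, a ubiquitin-like modifier, was 42.3, 49.2 and 66.99 CPM and 195, 426 and 385 CPM and rose by 2.67 ± 0.38. Rsad2, the gene of the antiviral enzyme viperin, rose by 2.53 ± 0.41 and Mx1, a dynamin-like GTPase, by 0.88 ± 0.13. The member that fell was Mndal, one of a cluster of closely related DNA-sensor genes, from 25.9, 28.5 and 28.4 CPM to 7.48, 11.2 and 10.4 CPM, a fall of 1.51 ± 0.14.

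Genes that make and relay the interferon signal were also higher for the most part. Ifnb1, interferon beta itself, was scarce at 0.141, 0.215 and 0.309 CPM in CtrV and 0.843, 6.76 and 3.46 CPM in EKO-labelled cells, which were all higher, and the fitted difference was 3.94 ± 0.52 (edgeR adjusted p = 1.4e-04). Irf7, the factor that amplifies interferon production, rose from 32.1, 42.8 and 51.2 CPM to 122, 322 and 294 CPM, by 2.53 ± 0.35. Usp18 and Socs3, which both damp cytokine receptor signaling, rose by 1.87 ± 0.19 and 1.61 ± 0.18. The members called lower were 2 receptor chains. Ifngr1, the binding chain of the interferon gamma receptor, was 204, 206 and 208 CPM in CtrV and 93.5, 90.7 and 98.6 CPM in EKO-labelled cells, a fall of 1.13 ± 0.05, and Ifnar2, a chain of the interferon alpha and beta receptor, fell by 0.32 ± 0.06. Ifngr2, the other chain of the interferon gamma receptor, rose by 0.86 ± 0.06. Of the 19 signaling members tested, 11 were called higher and 2 lower. The interferon-inducible GTPases, which attack the vacuoles of intracellular microbes, had 15 of 17 tested members called higher and 0 lower. Among called members with a mean log2 CPM of at least 1, Gbp4 rose most, by 1.60 ± 0.16, then Ifi47 by 1.39 ± 0.22.

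**Figure D2:**
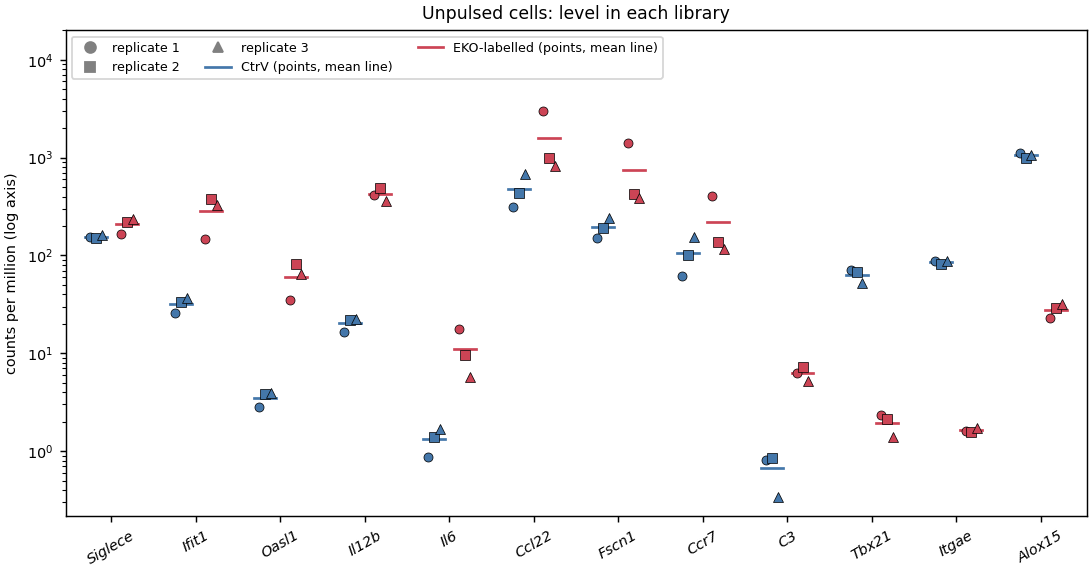
CPM on a log axis in each of the 3 CtrV and 3 EKO-labelled unpulsed libraries, with marker shape giving the replicate number and lines the means of 3, for 12 genes. Siglece lies slightly higher in all 3 EKO-labelled libraries than in CtrV. Ifit1 and Oasl1 are lowest in EKO-labelled replicate 1 among that line, and Ccl22, Fscn1 and Ccr7 are highest there. Tbx21, Itgae and Alox15 lie far lower in all 3 EKO-labelled libraries than in CtrV.

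Of 21 cytokine genes tested, 12 were called higher and 4 lower in EKO-labelled cells. Il12b, the p40 chain shared by IL-12 and IL-23, was 16.5, 21.9 and 22.4 CPM in CtrV and 415, 486 and 358 CPM in EKO-labelled cells, a rise of 4.35 ± 0.25 (edgeR adjusted p = 3.3e-07). Il23a, the p19 chain of IL-23, was 1.02, 2.11 and 2.89 CPM and 15.3, 14.5 and 11.04 CPM and rose by 2.76 ± 0.27, while Il12a, the p35 chain of IL-12, was below the expression limit for testing. The lines did not overlap in either gene. Il6, an acute-phase cytokine, was 0.881, 1.396 and 1.68 CPM in CtrV and 17.9, 9.54 and 5.69 CPM in EKO-labelled cells, with replicate 1 highest, and rose by 2.95 ± 0.32. Il1a rose by 3.47 ± 0.16 and Il1b by 1.79 ± 0.19, the latter from 604, 566 and 726 CPM to 2119.9, 2460.4 and 1992 CPM. Il1rn, the antagonist of both at their receptor, rose with them, from 0.811, 0.537 and 0.996 CPM to 13.3, 8.94 and 7.89 CPM, by 3.67 ± 0.23. Tnf rose by 0.78 ± 0.22, from 151, 118 and 149 CPM to 199, 351 and 187 CPM, but it was not called without CtrV replicate 2 (adjusted p = 0.071) or without EKO-labelled replicate 2 (adjusted p = 0.053, both edgeR).

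The cytokines called lower were Lif, Inhba, Tgfb1 and Il16. Lif, a member of the IL-6 family, was 4.62, 3.44 and 5.81 CPM in CtrV and 0.367, 0.693 and 0.703 CPM in EKO-labelled cells, a fall of 2.94 ± 0.24. Inhba, which encodes the subunit of activin A, had 86, 65 and 76 counts in CtrV and 0, 1 and 2 counts in EKO-labelled cells, and the ratio of the summed counts per library size was 79.98 with an exact 95% interval of 27.02 to 391, which covers counting error only. Tgfb1, transforming growth factor beta, fell by 0.30 ± 0.06, and Il16, a ligand of CD4, by 0.30 ± 0.09. Il16 was not called without CtrV replicate 1 or EKO-labelled replicate 1 (edgeR adjusted p = 0.072 and 0.077).

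Among chemokines, the inflammatory CC chemokines Ccl3, Ccl4 and Ccl5 rose steeply. Ccl4 was 34.9, 39.7 and 46.3 CPM in CtrV and 299, 661 and 572 CPM in EKO-labelled cells (a rise of 3.61 ± 0.22), and Ccl3 was 38.8, 43.8 and 43.6 CPM and 280.0, 658 and 591 CPM. Both were lowest in replicate 1 of the EKO-labelled libraries. Ccl5, an attractant of T cells, was highest in replicate 1, at 47.3, 66.5 and 107 CPM in CtrV and 867, 547 and 429.9 CPM in EKO-labelled cells, and rose by 2.92 ± 0.44. 8 of 12 CC chemokines tested were called higher and 1 lower, but 8 became 5 without EKO-labelled replicate 2. The one called lower was Ccl6, a chemokine of macrophages, which fell by 0.94 ± 0.20. 7 of 8 other chemokines were called higher, among them Cxcl10, an interferon-inducible ligand of CXCR3, from 8.71, 8.84 and 7.63 CPM to 27.1, 82.96 and 73.2 CPM (a rise of 2.77 ± 0.32), and Cxcl2, a neutrophil attractant, from 7.05, 9.78 and 11.7 CPM to 61.5, 57.6 and 40.9 CPM (a rise of 2.48 ± 0.19). Cxcl9, which is induced by interferon gamma, rose by 1.47 ± 0.23 at low levels of 1.16, 1.07 and 0.7902 CPM in CtrV and 3.04, 2.51 and 2.75 CPM in EKO-labelled cells.

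Promoter stretches of the cytokine and chemokine genes with the largest rises that hold an NF-kB consensus site, searched on both strands, are shown in the same way. 3 of 11 promoters of cytokines called higher and 3 of 6 of CXC and other chemokines called higher held the consensus, beside 3.9% of all promoters given and 4.49% of those of genes tested. So did 1 of 6 promoters of cytokines called lower, 1 of 5 of CC chemokines called higher and 0 of 1 of those called lower. The AP-1 site was in 3 of 11 promoters of cytokines called higher, beside 4.4% of those of genes tested. It was in 2 of 6 promoters of cytokines called lower and 1 of 6 of CXC and other chemokines called higher. The stretches lie at chr5:30013040-30013109, plus strand for Il6, at chr5:92348953-92349078, minus strand for Cxcl10, and at chr5:90903772-90903842, plus strand for Cxcl2.
Il6: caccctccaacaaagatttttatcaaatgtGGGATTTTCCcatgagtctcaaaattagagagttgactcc
Cxcl10: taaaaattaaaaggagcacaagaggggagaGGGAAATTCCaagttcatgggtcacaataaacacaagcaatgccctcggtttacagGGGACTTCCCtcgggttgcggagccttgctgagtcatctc
Cxcl2: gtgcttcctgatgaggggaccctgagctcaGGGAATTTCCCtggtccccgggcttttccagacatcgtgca
Cxcl10 holds 2 separate matches, whereas the 2 of Cxcl2 overlap and Il6 holds 1. A match is a description of the letters and does not show binding.

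Several receptors and adaptors of LPS sensing were more abundant in EKO-labelled cells. Tlr4 was 37.2, 32.2 and 31.2 CPM in CtrV and 74.1, 112 and 104 CPM in EKO-labelled cells and rose by 1.52 ± 0.17 (edgeR adjusted p = 4.3e-05). Cd14, the co-receptor that hands LPS over, was 53.4, 47.8 and 59.1 CPM and 138, 218 and 222 CPM and rose by 1.83 ± 0.20. Ly96, the gene of MD-2, rose by 1.32 ± 0.13. The lines did not overlap in these 3 genes, and EKO-labelled replicate 1 was the lowest of its line in each. Ticam2, the adaptor that links TLR4 to TRIF, rose by 2.45 ± 0.15, and Irak3, a brake on TLR signaling, by 2.10 ± 0.17, while the kinase gene Irak4 fell by 0.36 ± 0.06. In all, 9 of 18 members of this list were called higher, 2 lower and 7 were not called, with a median of 0.22. Ly86, the gene of MD-1, which pairs with the TLR4 relative RP105, was among the 12 largest rises of genes with a mean log2 CPM of at least 1, from 0.494, 0.931 and 0.996 CPM to 11.6, 14.3 and 13.9 CPM, by 4.04 ± 0.17. Tlr2 rose by 1.08 ± 0.19 and Tlr9, the receptor of unmethylated DNA, by 0.97 ± 0.15.

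NF-kB genes had 17 of 27 members called higher and 1 lower. Ikbke, a kinase of the IRF3 branch, was 2.36, 3.37 and 2.47 CPM in CtrV and 39.3, 31.2 and 26.03 CPM in EKO-labelled cells, a rise of 3.54 ± 0.25. Nfkbiz, a nuclear co-factor for a set of late NF-kB targets that includes Il12b and Il6, was 107, 113 and 111 CPM and 434, 556 and 529 CPM and rose by 2.20 ± 0.13. The feedback inhibitors Nfkbia and Tnfaip3 rose by 1.04 ± 0.13 and 1.17 ± 0.11, and the subunit gene Nfkb1 by 0.79 ± 0.07. The immediate early factors split, with 6 of 17 called higher and 7 lower. Atf3, a stress-induced repressor, rose by 1.98 ± 0.21, whereas Egr2 and Egr3, factors induced by MAP kinase and calcium signals, fell by 1.81 ± 0.12 and 1.15 ± 0.23. Of 10 MAP kinase phosphatases tested, 5 were called higher and 2 lower. Dusp2 rose by 2.17 ± 0.35, Dusp8 by 1.58 ± 0.19 and Dusp16 by 1.22 ± 0.07, whereas Dusp6, a target and brake of ERK, fell by 1.15 ± 0.13.

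Surface molecules that T cells read were mostly higher. Of 11 co-stimulators tested, 9 were called higher and 2 lower. Cd40, the receptor through which helper T cells license DCs, was 31.9, 37.02 and 42.3 CPM in CtrV and 173, 172 and 141 CPM in EKO-labelled cells, a rise of 2.12 ± 0.19 (edgeR adjusted p = 7.8e-06). Cd80 and Cd86, the ligands of CD28 and CTLA-4, rose by 1.27 ± 0.11 and 0.70 ± 0.07, and Cd70, the ligand of CD27, by 2.21 ± 0.21. Cd83, a marker of mature DCs, was 4.05, 6.09 and 8.83 CPM and 89.3, 43.6 and 35.97 CPM and rose by 3.03 ± 0.35. The lines did not overlap in these 5 genes. Cd24a, a glycoprotein of lymphoid-tissue DCs that is itself a ligand of Siglecs, fell from 568, 533 and 567 CPM to 196, 189.5 and 207 CPM, by 1.496 ± 0.09. Inhibitory ligands rose beside the co-stimulators, with 7 of 9 called higher and 0 lower. Cd274, the gene of PD-L1, was 46.3, 54.7 and 53.8 CPM in CtrV and 209, 148 and 125 CPM in EKO-labelled cells and rose by 1.58 ± 0.20. Tnfsf15, a TNF family ligand that co-stimulates T cells through DR3, rose by 3.12 ± 0.24, from 23.8, 26.998 and 23.3 CPM to 279.9, 236 and 156 CPM.

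MHC class I presentation was higher as a group and MHC class II was mixed. Of 24 class I genes tested, 17 were called higher and 2 lower, with a median of 0.58. Nlrc5, the transactivator of class I genes, was 22.4, 26.6 and 25.5 CPM in CtrV and 75.6, 118 and 112 CPM in EKO-labelled cells, a rise of 2.04 ± 0.25. Tap1, a chain of the peptide transporter, rose by 1.502 ± 0.13, and H2-K1, a classical heavy chain, by 1.10 ± 0.10, from 241, 249.8 and 312 CPM to 506, 607 and 606 CPM. The chaperones Calr and Pdia3 of the loading complex fell by 0.34 ± 0.06 and 0.39 ± 0.06. Of 19 class II genes tested, 7 were called higher and 6 lower, with a median of -0.01, and 3 were called lower without EKO-labelled replicate 2 or without replicate 3. H2-Ab1 rose by 0.53 ± 0.05, from 2758, 2991 and 3159.8 CPM to 4188, 4327 and 4369 CPM, while Ciita, the class II transactivator, fell by 0.39 ± 0.09 with overlapping libraries (890.3, 884 and 714 CPM and 760.1, 591 and 556 CPM). Cd74, the invariant chain, was 17000.1, 16523 and 18270.4 CPM in CtrV and 13959, 16377 and 16484 CPM in EKO-labelled cells and did not pass the test (edgeR adjusted p = 0.096).

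**Figure D3:**
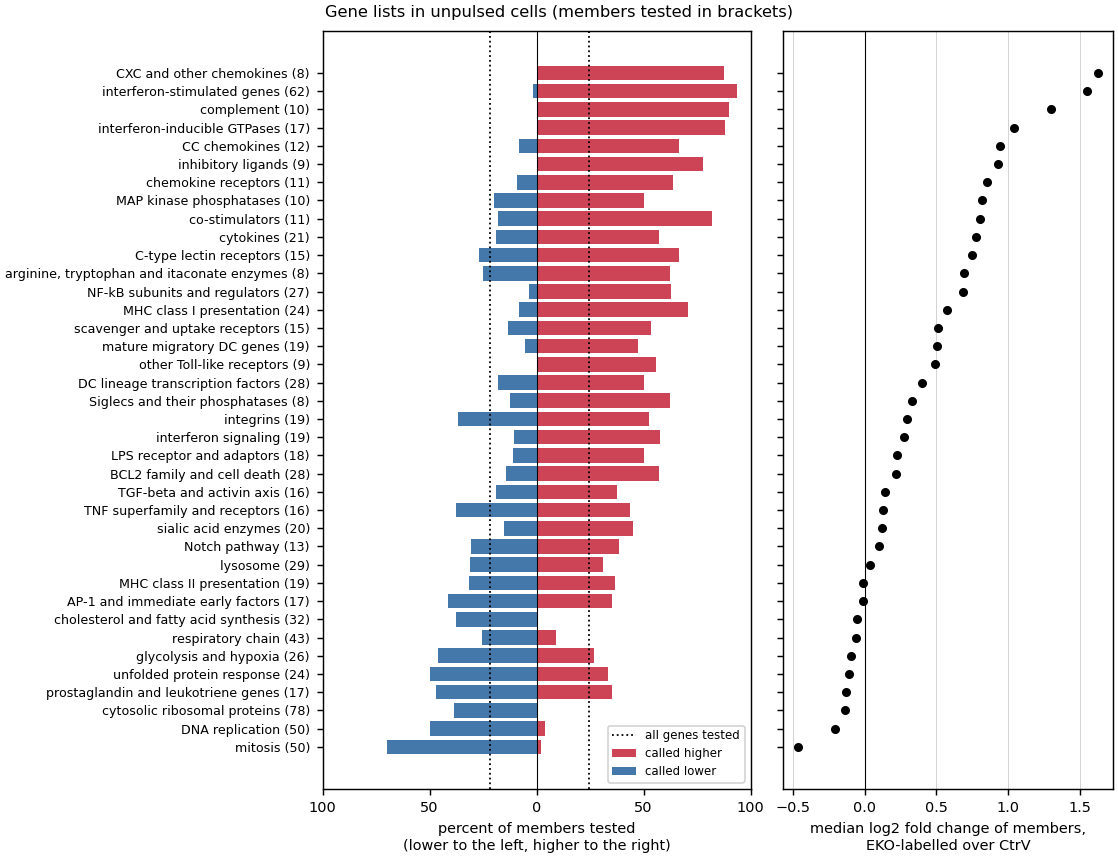
For each gene list with at least 8 members tested, the left panel gives the percent of members called higher (to the right) and lower (to the left) in EKO-labelled cells, with dotted lines at 24.5% and 21.9% for all genes tested, and the right panel gives the members' median log2 fold change. Interferon-stimulated genes, chemokines and complement lie at the top and mitosis, DNA replication and ribosomal protein genes at the bottom.

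Genes of the mature migratory DC state varied between the EKO-labelled libraries. Of 19 tested, 9 were called higher and 1 lower, and 16 were highest in replicate 1 among the EKO-labelled libraries. Fscn1, the gene of the actin-bundling protein fascin, was 149.9, 191 and 241 CPM in CtrV and 1399, 427 and 387 CPM in EKO-labelled cells and rose by 1.55 ± 0.42 (edgeR adjusted p = 0.011). Ccl22, which attracts regulatory T cells, was 313, 435 and 679 CPM and 2979.7, 995 and 823 CPM and rose by 1.40 ± 0.47 (edgeR adjusted p = 0.03). Ccr7, the receptor that guides DCs to lymph nodes, was 62.3, 102 and 153 CPM in CtrV and 404, 137 and 118 CPM in EKO-labelled cells, so replicates 2 and 3 of the EKO-labelled line lay within the CtrV range, and the difference of 0.72 ± 0.52 did not pass the test (edgeR adjusted p = 0.29). Ccl17, a ligand of CCR4 like Ccl22, was 346, 331 and 327 CPM in CtrV and 665, 319 and 316 CPM in EKO-labelled cells, with replicate 1 above and the other 2 below every CtrV library (difference 0.26 ± 0.21, edgeR adjusted p = 0.35). Flt3, the growth factor receptor of DCs, was 1.59, 1.83 and 1.92 CPM and 7.85, 1.81 and 1.804 CPM and did not pass the test (edgeR adjusted p = 0.1), but it did without EKO-labelled replicate 3, which leaves replicate 1 more weight (edgeR adjusted p = 0.025). Without EKO-labelled replicate 1, 6 members were called higher and 4 lower, and Ccl22 was not called (log2 difference 1.15, edgeR adjusted p = 0.08). Ccl22 was not called without EKO-labelled replicate 2 either (edgeR adjusted p = 0.096), and without CtrV replicate 1 the members called lower were 5.

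The same library was at the other end for the interferon genes. Among the EKO-labelled libraries, replicate 1 was the lowest in 60 of 62 interferon-stimulated genes. As a median over members of log2(CPM + 1), taken from the CtrV mean, these genes stood at 0.86, 1.76 and 1.62 in EKO-labelled replicates 1, 2 and 3 and at -0.14, 0.03 and 0.12 in CtrV. The migratory genes stood at 0.99, 0.35 and 0.22 in EKO-labelled and at -0.13, 0.01 and 0.11 in CtrV libraries. The library with the least interferon-stimulated expression in its line had the most migratory expression, and in both lists it still lay above every CtrV library. Without it, 59 of 62 interferon-stimulated genes were called higher. Over all genes tested, the deviations from the group means correlated at 0.706 between the unpulsed and the OVA-pulsed replicate 1 of the EKO-labelled line, 0.351 and 0.411 for its replicates 2 and 3, and 0.077, 0.179 and 0.373 for replicates 1 to 3 of CtrV.

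**Figure D4:**
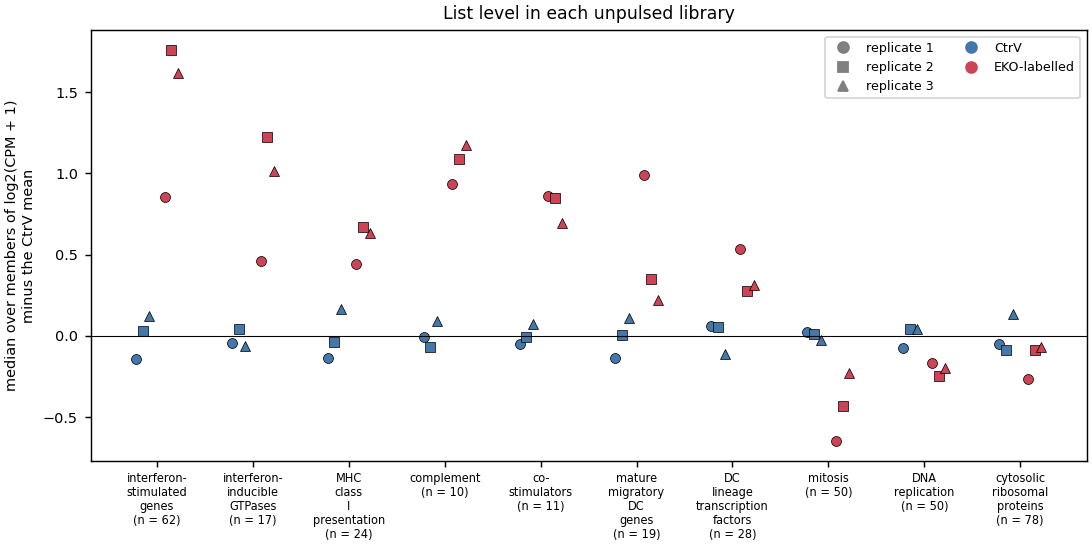
Median over list members of log2(CPM + 1), minus the mean of that gene over the 3 CtrV libraries, in each of the 6 unpulsed libraries, with marker shape giving the replicate number and n the members tested. EKO-labelled replicate 1 (red circle) lies lowest of its line for interferon-stimulated genes (0.86 against 1.76 and 1.62) and for mitosis, and highest for mature migratory DC genes (0.99 against 0.35 and 0.22).

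Cell identity was checked with markers of DC subsets and of other cells. Itgax, the gene of CD11c, was 1061, 966 and 858 CPM in CtrV and 847, 855 and 832 CPM in EKO-labelled cells, a fall of 0.18 ± 0.06 that was not called without CtrV replicate 1 or 2 or EKO-labelled replicate 1 or 2 (edgeR adjusted p = 0.15, 0.072, 0.11 and 0.078). Of the cDC1 markers, Clec9a and Cadm1 had no count in any of the 6 libraries. Of the 4 cDC1 markers tested, 1 was called higher, Xcr1, the receptor of the chemokine XCL1, from 0.282, 0.179 and 0.378 CPM to 0.917, 1.25 and 1.38 CPM (a rise of 2.06 ± 0.25), and 1 lower, Naaa, by 1.05 ± 0.10. Of the cDC2 markers, Cd209a, the mouse DC-SIGN gene, rose from 1.94, 1.97 and 2.405 CPM to 11.4, 10.7 and 12.8 CPM, by 2.47 ± 0.19, and Mgl2 and Clec10a, galactose-type lectins, fell by 0.29 ± 0.08 and 0.29 ± 0.06, the former not called without CtrV replicate 1 (edgeR adjusted p = 0.053). Markers of plasmacytoid DCs, B cells, NK cells, neutrophils, mast cells, fibroblasts and erythroid cells summed to at most 1.24 CPM per list in any library, and those of endothelium to at most 3.098 CPM. Of the T cell markers, Cd5 rose by 1.55 ± 0.15 at 7.74, 5.91 and 5.78 CPM in EKO-labelled cells, whereas Cd3e, Cd3g and Cd2 had no count. Epithelial keratin genes Krt8 and Krt18 had no count, but Cdh1, E-cadherin, was 618, 568 and 551 CPM in CtrV and 173, 156 and 182 CPM in EKO-labelled cells and fell by 1.77 ± 0.07.

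Macrophage and monocyte markers moved with the line. 7 of 9 tested of 14 in the list were called higher and 0 lower, and their summed level was 2301 to 2427 CPM in CtrV and 3177 to 3681 CPM in EKO-labelled cells, with Mrc1, Cd163 and Vsig4 at no count. In bulk RNA, more cells of a type and more RNA of a gene per cell cannot be told apart, and the part of such cells in the other differences was not tested. C1qa and C1qc, chains of the complement starter C1q, rose by 1.05 ± 0.09 and 0.98 ± 0.11, and Fcgr1, the high-affinity IgG receptor, by 1.32 ± 0.18. Csf1r, the M-CSF receptor, rose from 639.5, 594 and 592 CPM to 841, 873 and 874 CPM, by 0.504 ± 0.06, whereas Csf2rb, the shared beta chain of the GM-CSF receptor, fell from 2778, 2721 and 2655 CPM to 2376, 1779 and 1752 CPM, by 0.48 ± 0.08. Csf2ra, another GM-CSF receptor gene, did not pass the test (difference 0.01 ± 0.08, edgeR adjusted p = 0.90). The complement list had 9 of 10 tested members called higher and 0 lower. C3, the central component, was 0.811, 0.859 and 0.344 CPM in CtrV and 6.31, 7.26 and 5.26 CPM in EKO-labelled cells, and its receptor gene C3ar1 was 84.6, 90.3 and 75.5 CPM and 378, 639 and 600.0 CPM, with rises of 3.26 ± 0.31 and 2.67 ± 0.14.

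Lineage transcription factors and uptake receptors shifted in both directions. Irf8, a factor required for cDC1, rose from 80.4, 87.01 and 109 CPM to 226, 192 and 178 CPM, by 1.09 ± 0.15, and Runx2 rose by 2.56 ± 0.14 and Zeb2 by 1.74 ± 0.23. Mycl, a MYC family factor of DCs, fell by 1.86 ± 0.14, Id2 by 0.75 ± 0.06 and Cebpa by 1.01 ± 0.10. 14 of 28 such factors were called higher, 5 lower and 9 were not called. The uncalled included Irf4, Zbtb46 and Spi1, with differences of 0.05 ± 0.14, 0.01 ± 0.06 and 0.06 ± 0.07 (edgeR adjusted p = 0.80, 0.94 and 0.50). Among C-type lectins, 10 of 15 were called higher and 4 lower. Clec7a, the beta-glucan receptor Dectin-1, fell from 251, 228 and 218 CPM to 46.5, 94.7 and 90.3 CPM, by 1.63 ± 0.24, while Ly75, the uptake receptor DEC-205, rose from 8.88, 12.7 and 14.02 CPM to 115, 43.5 and 42.1 CPM, by 2.27 ± 0.38. Stab1, a scavenger receptor, rose by 2.69 ± 0.10 and Axl, a receptor for dying cells, by 1.24 ± 0.16. Fcer1g, the common gamma chain of Fc receptors, rose by 1.78 ± 0.08.

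Some falls were nearly complete. Sh3kbp1, an adaptor of receptor endocytosis on the X chromosome (chrX:159627272-159978069 on the plus strand), had 2233, 1950 and 1871 counts in CtrV and 2, 3 and 4 counts in EKO-labelled cells, a ratio of 711 (exact 95% interval 374 to 1556, counting error only). Hnmt, the histamine-inactivating methyltransferase at chr2:24002910-24049394 on the minus strand, had 152, 157 and 175 counts in CtrV and no count in any EKO-labelled library, at least 170.5-fold lower when 3 counts over the group are taken as the floor. Hadh, a mitochondrial enzyme of fatty acid oxidation at chr3:131233419-131272101 on the minus strand, had 303, 327 and 324 counts in CtrV and 1 count in all 3 EKO-labelled libraries together, a ratio of 1008 with an exact 95% interval of 180.5 to 39870. These genes were transcribed in CtrV cells and close to silent in the EKO-labelled pool. By the rule used (called, a median of at most 3 counts in one line and a mean of at least 4 CPM in the other), 6 genes were near silent in EKO-labelled cells, the other 3 being Esyt3, Klhl14 and Prelid2, and none was near silent in CtrV. They lie on chromosomes X, 2, 3, 9 and 18, with Klhl14 and Prelid2 both on the last.

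Several genes known for DC subsets, adhesion and microbial sensing were among the 12 largest falls of genes with a mean log2 CPM of at least 1. Slc8a2, a sodium and calcium exchanger, went from 111, 111 and 94.5 CPM to 0.403, 0.32998 and 0.367 CPM, a fall of 8.15 ± 0.13. Itgae, the gene of CD103 that pairs with integrin beta 7 and binds E-cadherin, was 86.9, 81.6 and 87.9 CPM in CtrV and 1.61, 1.55 and 1.71 CPM in EKO-labelled cells, a fall of 5.72 ± 0.11 (edgeR adjusted p = 2.1e-10). Tbx21, the gene of T-bet, was 71.5, 67.6 and 52.01 CPM and 2.35, 2.11 and 1.41 CPM, a fall of 5.03 ± 0.07. The lines were wide apart in all 3, and the replicates within each line were close. Nod1, a sensor of bacterial peptidoglycan, fell by 4.87 ± 0.18, from 11.1, 12.3 and 12.7 CPM to 0.44004, 0.429 and 0.367 CPM. Klrb1f, one of a family of similar lectin-like receptors, fell by 5.14 ± 0.25 and Rab37, a GTPase of secretory vesicles, by 5.94 ± 0.12. Sptbn1, a spectrin of the membrane skeleton, fell by 5.10 ± 0.15, Dock1, an activator of Rac in engulfment, by 4.12 ± 0.16, Ptpn3, a tyrosine phosphatase, by 4.37 ± 0.22, and Maged1 by 4.43 ± 0.18.

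Lipid mediator genes moved in both directions. Ptgs2, inducible cyclooxygenase, was the largest rise among the genes named by the rule, from 2.01, 2.47 and 1.75 CPM to 48.6, 79.5 and 48.8 CPM, by 4.82 ± 0.26 (edgeR adjusted p = 2.0e-07). Ptgs1, the constitutive cyclooxygenase, fell from 345, 337 and 331 CPM to 83.2, 58.1 and 61.2 CPM, by 2.33 ± 0.16. Alox15, the 12/15-lipoxygenase that oxidizes polyunsaturated fatty acids, was 1126, 1000.3 and 1069.5 CPM in CtrV and 22.8, 28.8 and 32.1 CPM in EKO-labelled cells, a fall of 5.26 ± 0.18 (edgeR adjusted p = 1.8e-08). Ptger4, the prostaglandin E2 receptor EP4, rose by 1.11 ± 0.12 and Ptger3, the receptor EP3, fell by 1.35 ± 0.07. Pla2g4f, a cytosolic phospholipase, rose by 3.80 ± 0.29. Among genes with a mean log2 CPM of at least 1, the 12 largest rises also held Rtl5, Zfp811 and Rab30, at 4.33 ± 0.30, 3.67 ± 0.20 and 3.64 ± 0.20. Over the list of 17 tested, 6 were called higher and 8 lower.

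Other integrins and TGF-beta genes moved in both directions. Of 19 integrins tested, 10 were called higher and 7 lower. Itgb8, the chain with which integrin alpha V activates latent TGF-beta, was 0.881, 1.07 and 1.07 CPM in CtrV and 21.2, 13.2 and 8.26 CPM in EKO-labelled cells, a rise of 3.78 ± 0.29. Itgal, the LFA-1 chain that binds ICAM-1, was 68.5, 54.9 and 57.4 CPM and 407, 377 and 366 CPM and rose by 2.68 ± 0.07. Itga9 rose by 3.53 ± 0.36 from a low level, and Itga6 and Itga1, chains of laminin and collagen receptors, fell by 1.24 ± 0.09 and 0.78 ± 0.08. Skil, a nuclear inhibitor of SMADs, rose by 1.27 ± 0.09, Tgfbr2 by 0.51 ± 0.06 and Acvr2a, an activin receptor, by 1.21 ± 0.11, while Bmpr1a fell by 0.88 ± 0.06.

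Arginine and itaconate enzymes had 5 of 8 members called higher and 2 lower. Nos2, inducible nitric oxide synthase, was 6.099, 6.37 and 6.01 CPM in CtrV and 52.99, 68.6 and 50.2 CPM in EKO-labelled cells, a rise of 3.21 ± 0.13. Ass1, which regenerates arginine for it, rose by 2.12 ± 0.09, and Acod1, the enzyme that makes itaconate, by 2.67 ± 0.28. Odc1, the first enzyme of polyamine synthesis, fell from 230.5, 222 and 266 CPM to 106, 94.5 and 98.8 CPM, by 1.26 ± 0.09, and Kmo, of the kynurenine pathway, by 1.13 ± 0.17. Hk3 rose by 2.14 ± 0.13 and Hk2 by 0.81 ± 0.06, while the glycolytic enzyme gene Tpi1 fell by 1.06 ± 0.09. In the whole glycolysis and hypoxia list 7 of 26 were called higher and 12 lower. Pygl, glycogen phosphorylase, rose by 3.61 ± 0.26, from 0.423, 0.788 and 0.756 CPM to 9.46, 6.63 and 8.14 CPM.

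Cell death genes included Casp4, the caspase of mice that senses LPS in the cytosol, which was 0.0705, 0.4297 and 0.2405 CPM in CtrV and 2.86, 2.805 and 2.45 CPM in EKO-labelled cells, a rise of 3.44 ± 0.44 with no overlap of the lines. Bcl2l1, which encodes the survival protein BCL-XL, rose from 122, 112 and 124 CPM to 291, 328 and 334 CPM, by 1.42 ± 0.10. Casp1, the inflammasome protease, rose by 0.91 ± 0.09, whereas Gsdmd, the pore protein it cleaves, fell from 85.9, 82.1 and 84.7 CPM to 29.8, 39.04 and 34.6 CPM, by 1.29 ± 0.08, and the adaptor Pycard fell by 0.68 ± 0.13. 16 of 28 death-related genes were called higher and 4 lower. In the lysosome list 9 of 29 were called higher and 9 lower, with Ctsl, a cysteine protease, rising by 1.47 ± 0.13 and Man2b1, a mannosidase, and Ctsh falling by 0.96 ± 0.07 and 0.82 ± 0.05. Sialic acid genes also moved. St3gal1, which adds sialic acid to O-glycans, rose by 1.13 ± 0.12, and 9 of 20 sialic acid genes were called higher and 3 lower.

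Proliferation genes were lower. Of 50 mitosis genes, 35 were called lower and 1 higher, with a median of -0.46, and of 50 DNA replication genes 25 were called lower and 2 higher, with a median of -0.21. Cdc20, the activator of the anaphase-promoting complex, was 102, 96.9 and 106 CPM in CtrV and 40.7, 60.8 and 78.5 CPM in EKO-labelled cells, a fall of 0.82 ± 0.17 (edgeR adjusted p = 0.0028). Cdk1, the mitotic kinase, fell by 0.40 ± 0.08, and Tk1, thymidine kinase, from 42.6, 42.5 and 45.9 CPM to 24.5, 21.7 and 23.8 CPM, by 0.90 ± 0.09. Mki67, the Ki-67 gene, was 849, 745 and 465 CPM in CtrV and 474, 474 and 507 CPM in EKO-labelled cells, where CtrV replicate 3 lay below all 3 of them, and did not pass the test (edgeR adjusted p = 0.053), though it did without CtrV replicate 3 (edgeR adjusted p = 0.0019). The mitosis member that rose was Pttg1, securin, by 0.81 ± 0.15. Replicate 1 was the lowest EKO-labelled library in 48 of the 50 mitosis genes, and without it 29 were called lower, against 23 with no replicate block.

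Housekeeping lists shifted little and partly with single libraries. Of 78 ribosomal protein genes, 30 were called lower and 0 higher with a median of -0.14, but 19 were called lower without EKO-labelled replicate 1, which was the lowest of its line in 76 of them. CtrV replicate 3 was the highest CtrV library in 77 of the 78, and upper quartile scaling, which moved the median of all genes to -0.05, gave 49 called lower. 4 of 43 respiratory chain genes were called higher and 11 lower. Without EKO-labelled replicate 1 these counts were 2 and 11, and without CtrV replicate 3 they were 6 and 6. Those called lower were also 6 without EKO-labelled replicate 3, and they were 19 by upper quartile scaling. In cholesterol and fatty acid synthesis 12 of 32 genes were called lower and 0 higher, and 7 were called lower with no replicate block. 8 of 24 unfolded protein response genes were called higher and 12 lower, and 5 were called higher without CtrV replicate 3.

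Whether the line difference depended on OVA was asked with the 6 pulsed libraries. The line differences without and with OVA share no library, but they come from the same fit and the same estimate of spread. No gene passed the test of the difference between the line differences (0% of 14079 called by edgeR at an adjusted p under 0.05), and 269 genes had an unadjusted p under 0.05. No other tool or setting called a gene either, DESeq2 and limma voom included. The log2 differences without and with OVA had a Pearson correlation of 0.962 over the genes tested. These differences come from the same lines and are not independent replicates. Same-numbered libraries of a line also shared deviations, with correlations from 0.077 for CtrV replicate 1 to 0.706 for EKO-labelled replicate 1. Of the genes called in unpulsed cells, 84.8% were also called in the same direction in OVA-pulsed cells, and these were 83.8% of the genes called there. No gene was called in opposite directions.

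Side by side, the unpulsed and pulsed log2 differences were 4.08 and 4.02 for Oasl1, 4.35 and 4.55 for Il12b, and -5.72 and -5.99 for Itgae. Ccr7 was 0.72 without and 1.96 with OVA, Ccl22 1.40 and 2.27, and Fscn1 1.55 and 2.33, and the differences between these values did not pass the test (edgeR adjusted p = 1 for each). Among genes with a mean log2 CPM of at least 1, the smallest unadjusted p belonged to Dnal1, a dynein light chain gene, with -0.69 without and -1.01 with OVA (edgeR adjusted p = 1). Bola1, Cyp4f37 and H2afj followed with differences between the line differences of -0.42 ± 0.12, 0.26 ± 0.07 and -0.35 ± 0.10, beside the pseudogene Ap3m1-ps and Mir692-3, whose exons lie wholly within those of another gene on the same strand.

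**Figure D5:**
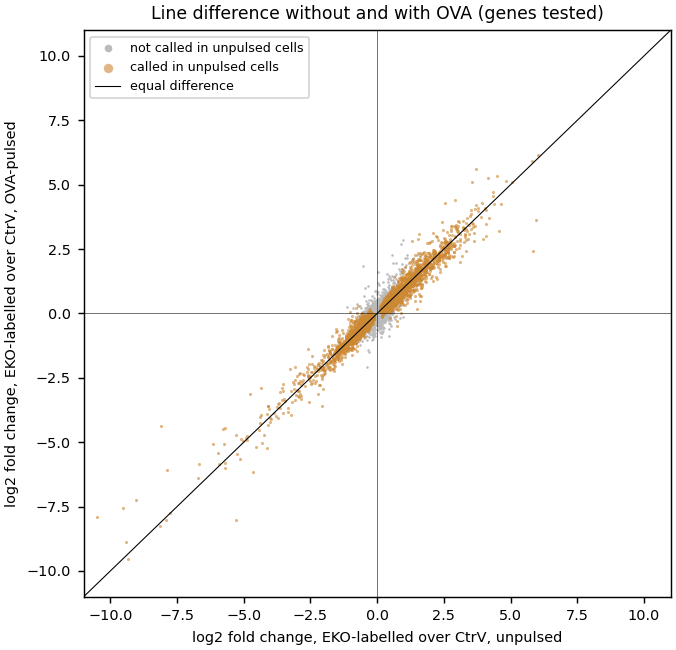
Fitted log2 fold change of EKO-labelled over CtrV cells without OVA (x axis) and with OVA (y axis) for each of the 14079 genes tested, with the line of equal difference. Most genes called in unpulsed cells lie along that line in both directions, and the correlation over genes is 0.962.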

How the data were processed

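Gene counts of 12 mouse RNA-seq libraries (poly(A) RNA, stranded kit) were analysed as deposited. Per the labels and the study's methods, the authors aligned reads to mm10 with STAR, reported each read at 1 place, and assigned read ends to exons with featureCounts. Reads of near-identical genes are therefore uncertain, and the strand setting of the counting is not given in the sources used here. Of 55401 genes, 28881 had a count, and the 14079 tested exceeded a log2 CPM of 0 in 2 libraries or more. Libraries were grouped by their labels, 3 a group. CPM (TMM-scaled) and log2 fold changes were computed here with edgeR 4.0.16 (R 4.3.3), by a quasi-likelihood fit over all 12 libraries with group and replicate number, two-sided, with Benjamini-Hochberg adjustment. The scripts were tested on simulated data. Genes were named as the 12 largest called rises and falls with a mean log2 CPM of at least 1, up to 3 per list and direction, 6 with the smallest p for the difference between line differences, and Siglece; any other gene was picked with its values in view. The comparison, its gene lists and its genes were chosen with earlier results of these data known. Alternatives covered scaling, filters, DESeq2 1.42.0, limma voom 3.58.1, the replicate block and each library left out. Counting intervals are exact and cover counting error only. Some items are not reported here.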

Additional observations from a re-analysis of the deposited data

Results flagged for a closer look

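The pseudogene Ap3m1-ps stood out because its line difference had opposite signs without and with OVA in every library pair. It was 20.02, 21.02 and 17.9 CPM in unpulsed CtrV and 23.03, 22.97 and 21.3 CPM in unpulsed EKO-labelled cells, a log2 difference of 0.19 ± 0.06, and 21.8, 24.1 and 21.8 CPM and 20.6, 21.1 and 20.97 CPM after OVA, a log2 difference of -0.11. The difference between the line differences was 0.30 ± 0.08 (edgeR adjusted p = 1).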

How the results depend on the processing

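The 6537 genes called with the replicate block became 5337 with no replicate block, of which 5328 were the same genes, and 4797 and 4362 in a fit of the 6 unpulsed libraries alone with and without the block. With no replicate block, Ciita, Itgax, Mgl2, Jag1 and Ap3m1-ps were not called, in the 6 libraries alone with the block Ptpn6, Il16, Itgax and Ap3m1-ps were not, and without it all 7 of these and Cxcr4 were not. Deviations from the group means correlated at 0.06, -0.01 and 0.26 between same-numbered libraries of the lines. Between differently numbered libraries of the lines they correlated at -0.24 to 0.19. These values cannot show, with 3 libraries a group, whether same-numbered samples share more than a number. The block stands because the study's methods use it. Other scaling, filters and tools gave 5784 to 6844 called genes, and the share of calls that were higher was 43.0% with upper quartile scaling and 52.75% as reported. Leaving out 1 unpulsed library gave 5389 to 6090. Requiring an absolute log2 fold change of at least 1 left 1241, and an adjusted p under 0.01 left 4573. Chosen after seeing the data, leaving out both replicate 1 libraries of the EKO-labelled line gave 6223, and both replicate 3 libraries of CtrV 5451. No called gene named here changed direction under these settings, and the uncalled Ccl17 ranged from -0.011 (without CtrV replicate 1) to 0.419 (without CtrV replicate 2) on the log2 scale when 1 library was left out, and the cause was not tested. The test of OVA called 0 genes under each setting, including the block within each line, with 103 (DESeq2) to 948 (without unpulsed CtrV replicate 1) genes at an unadjusted p under 0.05. With 3 libraries a group, small differences and genes near 1 CPM were measured least precisely.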

Other observations

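Notch ligands differed between the lines. Dll4, the Delta-like ligand that instructs T cells through Notch, was 0.0705, 0.537 and 0.481 CPM in CtrV and 12.2, 6.105 and 5.11 CPM in EKO-labelled cells, a rise of 4.39 ± 0.47 (edgeR adjusted p = 3.3e-05). Jag1, of the Jagged family, was 0.141, 0.179 and 0.172 CPM and 2.24, 0.396 and 0.245 CPM and differed by 2.396 ± 0.78 (edgeR adjusted p = 0.028). Jag1 was not called without CtrV replicate 1 or 3 (edgeR adjusted p = 0.23 and 0.062) or without EKO-labelled replicate 1 or 2 (edgeR adjusted p = 0.26 and 0.058). Its relative Jag2 fell from 22.1, 21.8 and 20.9 CPM to 15.9, 7.89 and 9.39 CPM, by 1.00 ± 0.16. Lfng and Mfng, which attach sugars to Notch receptors, fell by 1.10 ± 0.14 and 0.86 ± 0.06. The lines did not overlap in these 5 genes. In the whole pathway 5 of 13 genes tested were called higher and 4 lower, and 3 were called higher without CtrV replicate 3.

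Chemokine receptors had 7 of 11 tested members called higher and 1 lower. Ccr4, the receptor of CCL17 and CCL22, was 0.106, 0.251 and 0.103 CPM in CtrV and 2.09, 0.924 and 1.01 CPM in EKO-labelled cells, a rise of 3.09 ± 0.48. Cx3cr1, the fractalkine receptor, was 0.106, 0.358 and 0.344 CPM and 1.1001, 1.06 and 1.22 CPM and rose by 2.05 ± 0.33. The receptor called lower was Cxcr4, which fell by 0.69 ± 0.13. Among uptake receptors, Cd36 rose by 2.16 ± 0.43 and Marco by 1.66 ± 0.35, and Scarb1, the high-density lipoprotein receptor, fell by 0.64 ± 0.08. Of TNF superfamily genes, 7 of 16 were called higher and 6 lower, with Tnfsf10, the gene of TRAIL, rising by 1.84 ± 0.32 and Tnfrsf25, the receptor of TNFSF15, falling by 2.15 ± 0.32.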
